A study of Mus musculus with 15 samples.

Results

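Hepatocyte transcripts were examined in RNA-seq libraries of erythroid progenitors from mouse fetal liver. The 10 transcripts were chosen by gene name: Alb, Afp, Trf, Ttr, Ahsg, Apoa1, Apoa2, Apob, Fga and Fgb. All 10 were found among the 55487 genes of both count tables, and all 10 passed the filter on low counts in each comparison. The study profiled wildtype and Rpl5 mutant embryos of strain 129S6/SvEvTac at E12.5, in mid-gestation, and its title concerns Diamond Blackfan anemia, an inherited failure of red cell production. The product of Rpl5 is part of the ribosome's large subunit. In the first group of mice (group 1), each genotype had 3 libraries, and their molecule was labelled polyA RNA. In the second (group 2), labelled total RNA, wildtype, mutant and a further kind of sample, low-yield mutant, had 3 libraries each. The sample sheet of group 2 gives the genotype of both kinds of mutant as Rpl5plusSkax23Jus, whereas that of group 1 gives only M and WT. What low-yield refers to is not stated there. Neither the way the progenitors were isolated nor whether replicates came from separate embryos is given in the sources used here, so p-values measure only the spread between these samples, which may be technical.

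At this stage the fetal liver is the main site of red cell production, and erythroid progenitors mature beside hepatoblasts, the precursors of hepatocytes. Hepatoblasts and hepatocytes export large amounts of plasma proteins: the carriers albumin (Alb), alpha-fetoprotein (Afp), transferrin (Trf) and transthyretin (Ttr), the mineral-binding fetuin-A (Ahsg), the lipoprotein proteins Apoa1, Apoa2 and Apob, and the fibrinogen chains Fga and Fgb. Afp is the fetal relative of albumin and is replaced by it after birth. Their mRNAs are textbook markers of liver parenchyma, not of the erythroid lineage.

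The pair that carried most of the counts, Alb and Afp, lie next to each other on chromosome 5 of GRCm38 on the forward strand, Alb (ENSMUSG00000029368) at chr5:90460897-90476602 and Afp (ENSMUSG00000054932) at chr5:90490737-90508907. Fga (chr3:83026076-83033627, forward strand) and Fgb (chr3:83040141-83049863, reverse strand) are neighbours as well. The promoters of Alb and Afp are shown because these transcripts make up most of the hepatocyte counts. The windows run from 250 bases before to 50 after the RefSeq start (GRCm38.p6, forward strand), chr5:90460620-90460919 for Alb and chr5:90490464-90490763 for Afp. Capitals mark GTTAAT, a core element bound by the liver factor HNF1, and in Afp also a TATA box, TATAAA.

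Alb: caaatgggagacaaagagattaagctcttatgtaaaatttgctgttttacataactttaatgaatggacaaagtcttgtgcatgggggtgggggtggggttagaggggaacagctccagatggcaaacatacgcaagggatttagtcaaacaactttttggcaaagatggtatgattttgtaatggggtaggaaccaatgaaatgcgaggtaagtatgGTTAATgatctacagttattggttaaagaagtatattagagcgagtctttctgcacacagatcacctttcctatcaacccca

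Afp: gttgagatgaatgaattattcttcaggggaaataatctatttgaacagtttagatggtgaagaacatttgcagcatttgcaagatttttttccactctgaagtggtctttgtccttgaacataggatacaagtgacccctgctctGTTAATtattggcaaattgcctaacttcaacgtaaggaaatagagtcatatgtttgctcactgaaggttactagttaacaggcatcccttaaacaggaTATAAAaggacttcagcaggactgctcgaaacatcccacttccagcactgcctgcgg

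GTTAAT, searched on both strands, began 32 bases before the start in Alb and 105 bases before it in Afp. It was also present in Fga and Fgb, which makes 4 of the 8 members with a promoter searched, against 7.1% of all 32851 promoter windows of this length. Trf and Ttr were not searched. TATAAA was found in 3 of the 8 (Afp, Apoa2 and Apob), against 13.6% of all windows, and the erythroid GATA site AGATAA in 1 (Ahsg), against 11.2%. The general promoter element CCAAT was in 4 of the 8 (Alb, Afp, Apoa2 and Ahsg), against 37.4%. These are matches of letters, and binding was not measured.

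The group 1 libraries held 48510828 to 58513669 counts in all, those of group 2 fewer, 24954324 to 44827821. Rpl5 was lower in every mutant library than in every wildtype library of its group, at 520 to 570 against 656 to 744 CPM (counts relative to the library's TMM-adjusted total) in group 1. In group 2 it was at 232 to 248 CPM in mutant and 219 to 278 in low-yield mutant libraries, against 303 to 374 in wildtype.

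Hepatocyte transcripts were present in every library at a very low level. Their summed counts were between 274 and 3855 per library. The sum of a list of 12 erythroid genes (Hba-a1, Klf1, Tfrc and others), by contrast, was between 2420 and 7400 CPM, far above the hepatocyte sum in each library. In group 1 the 10 transcripts together stood at 66.2, 35.0 and 59.4 CPM in wildtype libraries 1, 2 and 3 (53.5 ± 16.4, SD, n = 3) and at 6.48, 22.5 and 21.4 in mutant libraries (16.8 ± 8.95). The highest mutant value was under the lowest wildtype value, and the mean was 3.19-fold lower (log2 ratio -1.67). In group 2 the wildtype libraries held 11.2, 30.0 and 85.9 CPM (42.4 ± 38.8), the mutant libraries 9.21, 52.1 and 23.7 (28.4 ± 21.8) and the low-yield mutant libraries 52.2, 46.8 and 49.6 (49.5 ± 2.73). Here the groups overlapped, and wildtype libraries differed among themselves by 7.67-fold, mutant libraries by 5.66-fold and low-yield libraries by 1.12-fold. Counting error was far smaller than this spread: the lowest group 1 mutant library had 6.45 CPM without TMM scaling (95% Wilson interval 5.78 to 7.2) and the highest group 2 wildtype library 86.0 (83.3 to 88.8), intervals that cover counting error only. In such bulk samples fewer cells of a type and less RNA per cell cannot be told apart.

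**Figure D1:**
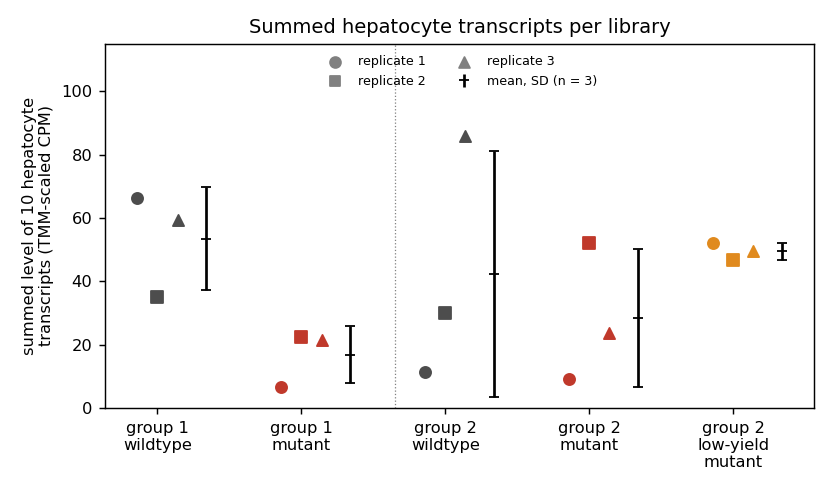
Summed level of the 10 hepatocyte transcripts in each of the 15 libraries (points, by replicate number), in CPM scaled by TMM, with mean and SD of 3 libraries beside them. The group 1 mutant libraries (6.48 to 22.5) lie below the wildtype ones (35.0 to 66.2), whereas the groups overlap in group 2, where low-yield mutant libraries sit between 46.8 and 52.2.

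The ratio of means in group 2 turned on single libraries. Without wildtype library 3 the log2 ratio of mutant to wildtype changed from -0.58 to 0.46, and without mutant library 2 it was -1.36. For low-yield mutant against wildtype it was 0.23, which became 1.26 without wildtype library 3 and -0.23 without wildtype library 1. Within group 1 the log2 ratio was between -1.94 and -1.29 whichever library was left out. No test was made of the sums, since the members were chosen as a set.

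Among the carriers, Alb showed the clearest difference. Its level in group 1 was 16.3, 9.38 and 13.4 CPM in wildtype and 1.05, 3.61 and 3.32 CPM in mutant libraries. All mutant libraries were below all wildtype ones, by a log2 fold change of -2.29 (SE 0.38, adjusted p 0.0108 by edgeR's quasi-likelihood test with Benjamini-Hochberg adjustment). With the replicate number as a block, which the pairing of the group 1 libraries calls for, the adjusted p of Alb was 0.111, and without mutant library 3 it was 0.0512. In group 2 Alb stood at 2.56, 8.44 and 23.3 CPM in wildtype, 1.85, 11.2 and 3.64 in mutant libraries. The low-yield mutant had 10.1, 7.79 and 11.0. The 3 groups overlapped, and the log2 fold changes against wildtype were -1.16 (SE 0.89, adjusted p 0.547 by edgeR) for the mutant and -0.30 (SE 0.80, adjusted p 0.865) for the low-yield mutant.

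Afp, the most abundant member by counts, was at 31.8, 15.9 and 28.7 CPM in group 1 wildtype and at 2.43, 11.0 and 10.2 in mutant libraries. The groups did not overlap, yet the log2 fold change of -1.69 (SE 0.60) missed the threshold (adjusted p 0.167 by edgeR). Group 2 had 3.76, 11.4 and 31.6 CPM in wildtype, 4.0, 20.5 and 8.80 in mutant libraries. In the low-yield mutant Afp was at 22.8, 20.8 and 19.9. All 3 low-yield libraries thus stood inside the wildtype range, and the edgeR log2 fold changes were -0.57 (adjusted p 0.772) in mutant and 0.39 (adjusted p 0.803) in low-yield libraries.

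Trf, which carries iron to red cell precursors, had the third highest counts. In group 1 it was at 8.58, 4.71 and 8.99 CPM in wildtype and 0.952, 4.41 and 3.06 in mutant libraries, without overlap (log2 fold change -1.41, SE 0.47, adjusted p 0.113 by edgeR). In group 2 the wildtype values were 1.83, 3.64 and 12.1 CPM, the mutant values 1.68, 7.26 and 3.85, and the low-yield values 7.13, 7.40 and 7.16. The low-yield libraries differed among themselves by less than any other group. The exons of Trf (chr9:103204001-103230444, reverse strand) overlap those of Gm20425 on the same strand, whose counts were not used here, so its reads may be shared.

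Ttr, the carrier of thyroid hormone and of the retinol-binding protein, was near the limit of detection at 3 to 52 counts per library. Its levels in group 1 were 0.425, 0.461 and 0.257 CPM in wildtype and 0.182, 0.403 and 0.138 in mutant libraries, and they overlapped (log2 fold change -0.64, SE 0.64, adjusted p 0.563 by edgeR). Ahsg had 40, 21 and 53 counts in group 1 wildtype and 4, 0 and 19 in mutant libraries. No mutant library reached the lowest wildtype level of 0.404 CPM, and the log2 fold change was -2.17 (SE 0.77, adjusted p 0.0868 by edgeR, and 0.0278 with the replicate block). A count of 0 in mutant library 2 allows up to 0.062 CPM. Ahsg lies on chromosome 16 (22891277 to 22899449) and its exons overlap an antisense gene, Gm30505, which had 0 to 6 counts per library.

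The lipoprotein proteins did not behave alike. Apob, the structural protein of very-low-density lipoprotein, stood in group 1 at 2.13, 0.807 and 1.49 CPM in wildtype and at 0.385, 0.141 and 0.534 in mutant libraries. It was lower in the mutant without overlap (log2 fold change -2.05, SE 0.54, adjusted p 0.0291 by edgeR, and 0.00235 with the replicate block). That call rested on 7 to 27 counts per mutant library and was lost when any library but wildtype 2 was left out (adjusted p 0.0602 to 0.108). In group 2 Apob was at 1.27, 2.51 and 7.55 CPM in wildtype, 0.168, 3.32 and 2.19 among mutants and 2.81, 4.05 and 3.62 among low-yield mutants, with overlap throughout. The mutant log2 fold change there was -1.11 (SE 0.77, adjusted p 0.492 by edgeR).

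Apoa1, the main protein of high-density lipoprotein, was the member with the smallest log2 fold change in group 1. Its levels there were 2.40, 1.38 and 2.79 CPM in wildtype and 0.891, 2.00 and 2.45 in mutant libraries. Mutant libraries 2 and 3 lay inside the wildtype range, and the log2 fold change was -0.31 (SE 0.38, adjusted p 0.651 by edgeR). In group 2 it was at 1.52, 2.43 and 4.08 CPM in wildtype, 0.907, 5.29 and 2.50 among mutants and 4.96, 3.56 and 4.41 among low-yield mutants (log2 fold changes 0.01 and 0.63, adjusted p 0.997 and 0.401 by edgeR). Apoa2, its partner on the same particles, was at 0.638, 0.711 and 0.445 CPM in group 1 wildtype and 0.243, 0.202 and 0.336 in mutant libraries. These did not overlap, but the log2 fold change of -1.18 (SE 0.54) did not pass the test (adjusted p 0.181 by edgeR).

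Both fibrinogen chains were scarce. Fga had 1.72, 0.884 and 1.54 CPM in group 1 wildtype and 0.162, 0.484 and 0.415 in mutant libraries. The difference was without overlap and passed the test (log2 fold change -1.96, SE 0.49, adjusted p 0.0228 by edgeR, and 0.0056 with the replicate block). Leaving out mutant library 1 or 3 or wildtype library 1 or 3 brought its adjusted p to between 0.0737 and 0.0832. Fgb was at 1.39, 0.346 and 0.976 CPM in wildtype and 0.101, 0.262 and 0.593 in mutant libraries of group 1. Mutant library 3 exceeded wildtype library 2, and the log2 fold change was -1.49 (SE 0.65, adjusted p 0.164 by edgeR). In group 2, wildtype library 1 had no read of Fga or Fgb (which allows up to 0.091 CPM), while wildtype library 3 had 89 and 62 counts.

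**Figure D2:**
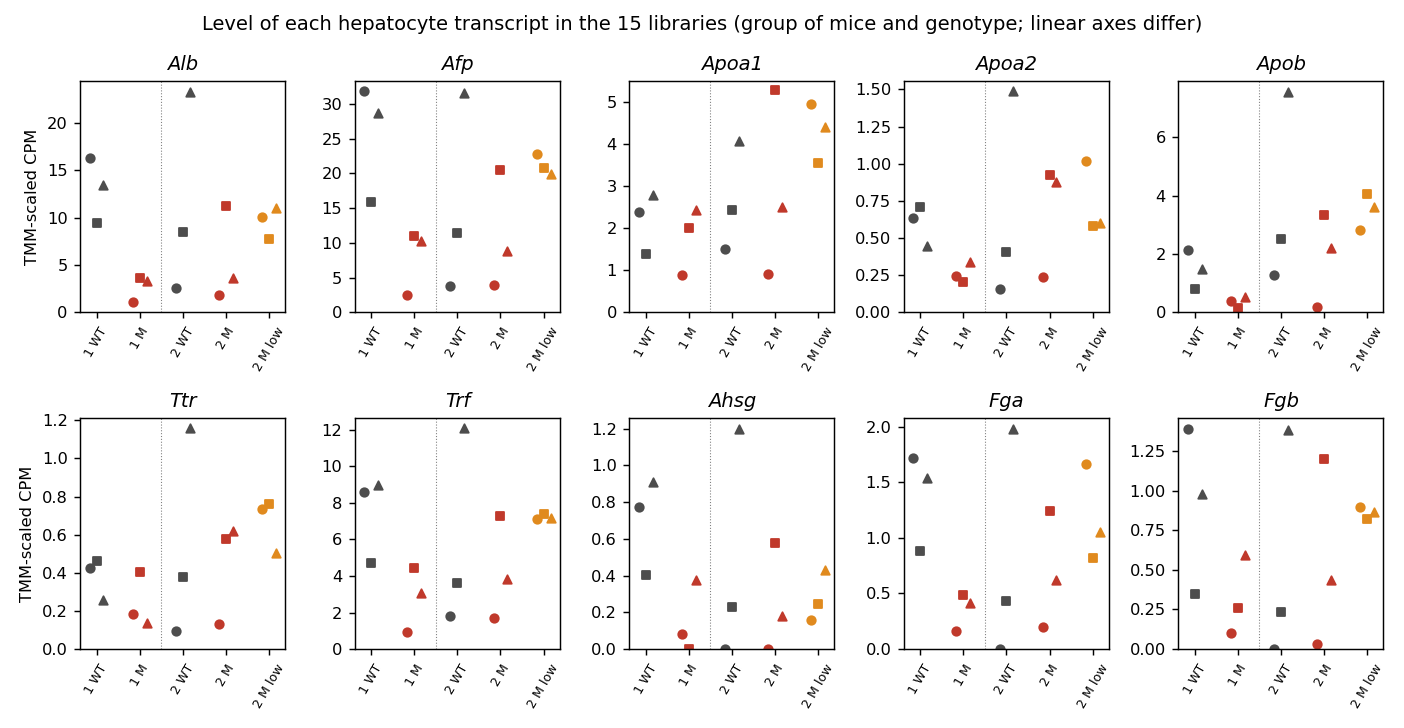
Level of each hepatocyte transcript in TMM-scaled CPM (linear axes that differ between panels), by group of mice and genotype (WT wildtype, M mutant, M low low-yield mutant), with circles, squares and triangles for replicates 1, 2 and 3. In group 2, wildtype library 3 (triangle) is the highest and wildtype library 1 (circle) the lowest wildtype library in all 10 panels.

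In group 1, 3 of the 10 transcripts (Alb, Apob and Fga) passed the test, all lower in the mutant; of all 14048 genes tested, 6.78% passed as lower and 5.79% as higher. All 10 fold changes were below 0, with a median log2 fold change of -1.59 against 0.01 over all genes tested. In 7 of the 10 the groups did not overlap, the exceptions being Apoa1, Ttr and Fgb, whereas 16.6% of all genes tested were lower without overlap. The members rose and fell together between libraries (r 0.73 to 0.98, given below), so these counts are not 10 independent observations. With the replicate block 3 were again called, Ahsg in place of Alb, while 9.92% of all genes were called lower. DESeq2 called 4 (Trf in addition; 8.99% of all genes were lower), and limma voom called 1 (Alb; 7.23% of all genes were lower). Without mutant library 3 none was called by edgeR (2.65% of all genes were lower), and without mutant library 1, wildtype library 1 or wildtype library 3 it was 1 (5.56%, 3.71% and 4.45%).

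In group 2 none of the 10 passed the test in the mutant, where 2.95% of 15024 genes passed as lower and 3.32% as higher, or in the low-yield mutant, where 5.86% passed as lower and 6.68% as higher. None of the 10 was without overlap from wildtype, against 11.8% of all genes lower and 11.5% higher in the mutant and 14.6% lower and 15.3% higher in the low-yield mutant. By edgeR the count at an unadjusted p under 0.05 was 0 of 10 in each of these comparisons, against 20.4% of all genes for the mutant and 26.5% for the low-yield mutant. DESeq2 and limma voom also called 0. Of all genes in the mutant, DESeq2 called 4.34% lower and 5.33% higher and limma voom 6.03% and 6.8%; for the low-yield mutant these shares were 7.71% and 8.25% by DESeq2 and 11% and 11.3% by limma voom. Log2 fold changes ran from -1.23 (Ahsg, SE 1.01) to 0.01 (Apoa1, SE 0.48) in the mutant and from -0.91 (Ahsg, SE 0.93) to 0.63 (Apoa1, SE 0.44) in the low-yield mutant, with medians of -0.52 and 0.16. Low-yield against other mutant libraries gave log2 fold changes between 0.07 (Apoa2) and 0.96 (Afp), all 10 with an adjusted p of 1, in a comparison where edgeR called 0.0% of all genes as higher and 0.0% as lower (4.15% and 4.07% were lower and higher without overlap), 480 genes had an unadjusted p under 0.05, and DESeq2 called 6 and limma voom 4. The standard errors in group 2, between 0.44 and 1.19, were mostly larger than those in group 1 (0.38 to 0.77), as is visible in the plot of fold changes.

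**Figure D3:**
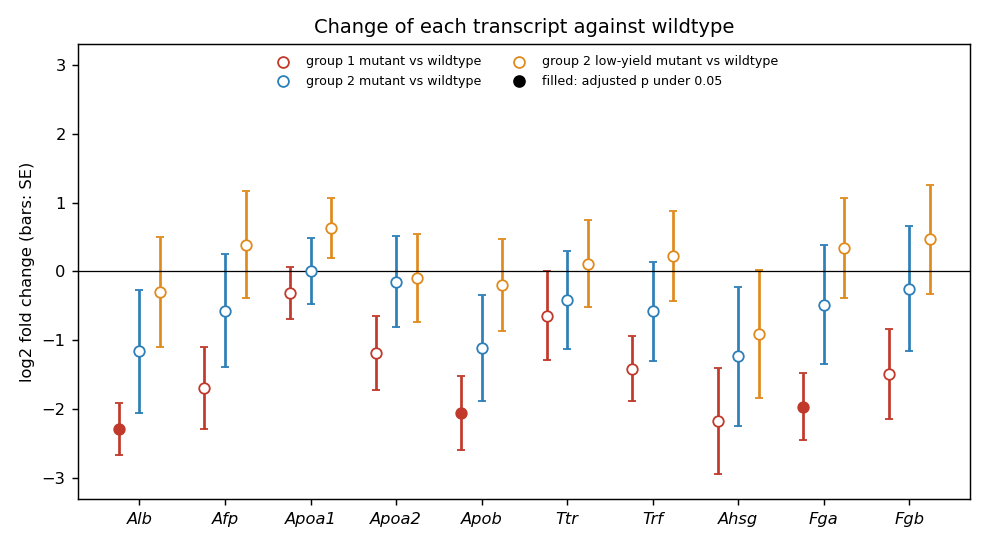
Log2 fold change of each transcript against the wildtype libraries of the same group of mice (edgeR), with bars for 1 SE and filled points for an adjusted p under 0.05. Only Alb, Apob and Fga in group 1 are filled; the mutant and low-yield comparisons of group 2 share their wildtype libraries.

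Over both groups of mice, with group as a block, edgeR called 0 of the 10 between mutant and wildtype, where 9.8% of all genes were called as lower and 9.8% as higher. The smallest adjusted p was that of Alb (log2 fold change -1.75, SE 0.58, adjusted p 0.066), and 4 members had an unadjusted p under 0.05, as did 31.7% of all genes. With a replicate block in both groups of mice, 3 were called, all lower: Apob (adjusted p 0.00456 by edgeR), Ahsg (0.0308) and Fga (0.0446), where 11.8% of all genes were lower. The pairing calls for that block in group 1 only, since in group 2 the replicate numbers were not taken to pair the libraries. DESeq2 and limma voom each called 2 as lower, with 13.1% and 12.4% of all genes, and leaving out group 2 wildtype library 1 or mutant library 2 gave 4 or 3, with 11.2% and 9.06%. The difference between the groups of mice was itself tested by an interaction term: none of the 10 passed (adjusted p 1 for each), none had an unadjusted p under 0.05 (2.14% of all genes did), DESeq2 and limma voom called 0 (and of all genes 0.0564% lower and 0.0251% higher, and 0.0188% lower), and the log2 interactions were between 0.24 (Ttr) and 1.49 (Fga, SE 1.14). Of all genes, 0.0188% passed that test with an interaction below 0 and 0.0% with one above 0. A difference between group 1 and group 2 in these transcripts was not detected, in a test that few genes of any kind passed.

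In the wildtype and mutant libraries of group 2 the members ranked libraries alike. There wildtype library 1 was the lowest wildtype library for 10 of 10 members and wildtype library 3 the highest for 10. Mutant library 1 was the lowest mutant library for 10 and mutant library 2 the highest for 9. Elsewhere the ranks were split: the 3 low-yield libraries were lowest for 3, 5 and 2 members and highest for 5, 3 and 2, and the group 1 mutant libraries lowest for 6, 3 and 1 and highest for 0, 5 and 5. In group 1 wildtype they were lowest for 0, 8 and 2 and highest for 5, 2 and 3. After the mean of each group was taken out, the log2 level of each member correlated with that of the sum of the other 9 at Pearson's r 0.98 for Alb, Afp and Trf, 0.96 for Fgb, 0.93 for Apoa1 and Fga, 0.80 for Ahsg, 0.77 for Apoa2 and Ttr and 0.73 for Apob (15 libraries). Libraries share their depth and scaling across members, and the scarcest members carry the most counting error, so these r values are a description.

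Per kilobase of exon, which allows genes to be compared, Afp (7.56 ± 2.50 CPM per kilobase, SD, n = 3) and Alb (5.56 ± 1.49) led in group 1 wildtype libraries and were within their spread of each other. Trf followed at 2.24 ± 0.712 and Apoa1 at 1.77 ± 0.588, and Apob, the longest transcript, was the lowest at 0.106 ± 0.0474. In group 1 mutant libraries Apoa1 (1.44 ± 0.649) stood between Afp (2.34 ± 1.40) and Alb (1.14 ± 0.597), none of these neighbours differing beyond their spread. Among group 2 mutants Afp (3.3 ± 2.52) and Alb (2.38 ± 2.13), and among group 2 wildtypes Alb (4.89 ± 4.57) and Afp (4.62 ± 4.27), were likewise within their spread. In the low-yield mutant libraries Afp, at 6.28 ± 0.435, was beyond the spread from the next member, Alb, at 4.11 ± 0.706.

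The balance of Alb to Afp, examined after its values were seen, sat lower in mutants than in wildtypes of either group of mice. Group 1 wildtype libraries had Alb to Afp count ratios of 0.513, 0.589 and 0.466 (0.523 ± 0.0619), and the mutants 0.433, 0.327 and 0.327 (0.362 ± 0.0614). Among group 2 libraries the ratios were 0.681, 0.743 and 0.739 for wildtype (0.721 ± 0.0349), 0.462, 0.548 and 0.413 for mutant (0.475 ± 0.0681) and 0.444, 0.375 and 0.552 for low-yield mutant (0.457 ± 0.0892). No mutant ratio reached the lowest wildtype ratio of its group, including that of library 2 of the group 2 mutant, whose summed level exceeded those of wildtype libraries 1 and 2. The log2 differences were -0.53, -0.61 and -0.67, each with a two-sided exact permutation p of 0.1, the smallest that 3 against 3 libraries can give. With the group 1 libraries paired by number, all 3 pairs were lower in the mutant, and the exact permutation p within pairs was 0.25, again the smallest possible. Low-yield and other mutant libraries overlapped (log2 difference -0.06, exact permutation p 0.8). As both group 2 comparisons use the same wildtype libraries, they are not independent. Within a library this ratio does not depend on scaling, but libraries with few Alb and Afp reads determine it poorly, as with group 2 mutant library 1 (55 and 119 counts, 95% Wilson interval 0.336 to 0.635) and group 2 wildtype library 1 (0.514 to 0.902).

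**Figure D4:**
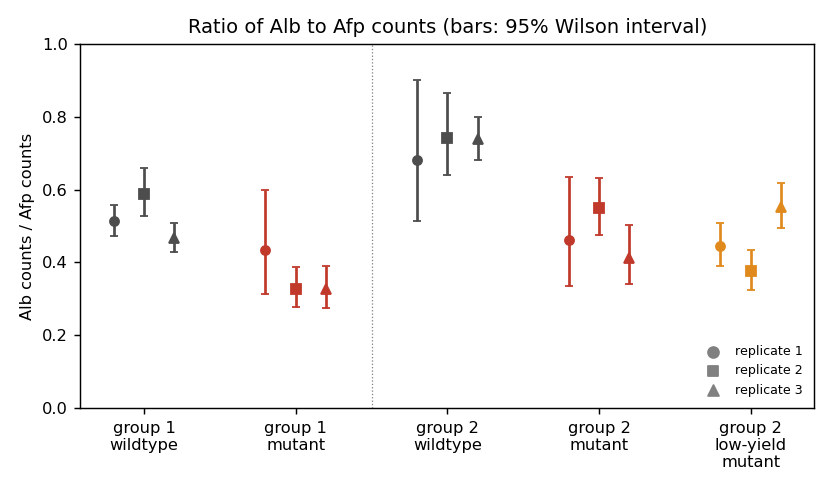
Ratio of Alb to Afp counts in each library, with 95% Wilson intervals for counting error. Mutant libraries lie below the wildtype libraries of their group in group 1 (0.327 to 0.433 against 0.466 to 0.589) and in group 2 (0.375 to 0.552 against 0.681 to 0.743), while several intervals overlap.

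As a share of the 10 members' counts, Alb made up 24.6 ± 2.15% in group 1 wildtype libraries against 15.9 ± 0.368% in mutant, and 26.0 ± 2.78% in group 2 wildtype against 19.0 ± 3.24% in mutant and 19.4 ± 2.77% in low-yield mutant libraries, without overlap in each case. Of the other members, shares did not overlap for Fga, lower in the group 1 mutant (2.2 ± 0.283% against 2.57 ± 0.0418% in wildtype), for Apoa2, higher in the group 2 mutant (2.68 ± 0.967% against 1.5 ± 0.21%), and, higher in the low-yield mutant than in wildtype, for Afp (42.7 ± 2.22% against 36.1 ± 2.18%) and Fgb (1.74 ± 0.0218% against 0.793 ± 0.804%). Apoa1 made up 4.09 ± 0.551% in group 1 wildtype and 11.4 ± 2.45% in mutant libraries, without overlap. The shares of 7 members in group 1, 8 in the group 2 mutant and 7 in the low-yield mutant overlapped with wildtype. These counts have no counterpart over all genes. Between 3 and 3 libraries, a separation without overlap has an exact permutation p of 0.1 at best, so the shares are a description. In group 2 the share of Apoa1 overlapped between wildtype (8.79 ± 4.45%) and mutant (10.2 ± 0.352%). Shares within a sum are bound to each other, so a higher share of one member follows in part from a lower share of another.

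Other liver secretory genes were counted from lists that do not share members with the 10. Of 15 clotting genes 9 could be tested, and in group 1 4 were lower (Serpinc1, Kng1, Plg and Serpinf2, log2 fold changes -2.49, -2.45, -1.75 and -1.59), with 4 again under the replicate block and 0 by limma voom. The list's median was -1.02, with 7 of the 9 fold changes below 0 and 2 above. Its summed level overlapped between wildtype (11.2 to 16.1 CPM) and mutant libraries (4.66 to 17.0) of group 1. The 2 above 0 were F5, its most abundant gene in wildtype, and F10. Neither was called (log2 fold changes 0.38, SE 0.8, and 0.85, SE 0.58, adjusted p 0.81 and 0.405 by edgeR). Of 19 carriers and protease inhibitors 9 could be tested, and 3 were lower in group 1 (Serpina6, -1.91, the binding protein of corticosteroids; Serpina1a, -2.56, an antitrypsin whose near-identical copies may share reads; and Itih3), or 6 with the replicate block and 2 by limma voom (Serpina1a at an adjusted p of 0.0747), the median being -1.91. The summed level of this list overlapped between wildtype (17.4 to 31.0 CPM) and mutant libraries (6.18 to 49.8) of group 1, and its most abundant gene, Hp, averaged 12.6 and 22.2 CPM there (log2 fold change 0.81, SE 1.07, adjusted p 0.694 by edgeR). Of 13 lipoprotein genes only 4 could be tested: Apom was lower in group 1 (-1.99, SE 0.46, adjusted p 0.0153 by edgeR), while Apoe (11.4 CPM in wildtype and 10.1 in mutant libraries on average) and Mttp (5.68 and 7.45) did not pass. The list's median was 0.01, equal to that of all genes. Apoe is also made by macrophages and Mttp by other tissues. Of 10 metabolic enzymes 2 could be tested; Ass1, an enzyme of arginine synthesis that many cells use, was higher (0.56, SE 0.10, adjusted p 0.00409 by edgeR), and Tat, a late hepatocyte gene, had no count in any library.

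Regulators and surface genes of hepatoblasts gave no call in group 1 by edgeR without the replicate block. Of 19 such genes 7 could be tested, and edgeR called 0, with 1 at an unadjusted p under 0.05; DESeq2 and limma voom each called 1 (Hhex). The median log2 fold change was 0.33. With the replicate block 2 were called, both higher: Hhex (0.73, adjusted p 0.000368), which blood progenitors also express, and Cebpa (1.49, adjusted p 0.0193), which myeloid cells also express. Hnf4a, the master regulator of hepatocytes, stood at 1.10 CPM in wildtype and 1.39 in mutant libraries of group 1 (log2 fold change 0.33, SE 0.35, adjusted p 0.591 by edgeR). Dlk1, a surface marker of hepatoblasts, was at 6.0 and 4.41 CPM (-0.45, SE 0.27, adjusted p 0.327 by edgeR).

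In group 2 few genes of these lists were called against wildtype. No clotting, lipoprotein or hepatoblast gene passed edgeR's test in the mutant (of 9, 4 and 10 tested; 1, 0 and 0 had an unadjusted p under 0.05, DESeq2 called 1, 0 and 0 and limma voom 0, 0 and 0). Among carriers, Hp (haptoglobin, which maturing granulocytes also make) was higher in mutant (1.97, SE 0.52, adjusted p 0.0336) and low-yield mutant libraries (2.77, SE 0.45, adjusted p 0.00108). In the low-yield mutant, F5 (3.48, SE 0.79), which megakaryocytes also contain, Cebpa (2.08, SE 0.48) and Onecut2 (3.44, SE 1.00) were higher too. Ass1, the 1 metabolic enzyme tested in group 2, was higher in the low-yield mutant (0.83, SE 0.17, adjusted p 0.00719 by edgeR) and missed the threshold in the mutant (adjusted p 0.0712 by edgeR, 0.015 by DESeq2, 0.0135 by limma voom and 0.00315 with the replicate block). The summed level of the 10 metabolic enzymes was 28.9 to 43.0 CPM in wildtype, 45.3 to 61.2 in mutant and 51.2 to 67.7 in low-yield libraries, without overlap from wildtype.

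Markers of other cell types were counted in the same libraries. In group 1 none of the 5 tested macrophage genes of 12 was called by edgeR, by DESeq2 or by limma voom (0 at an unadjusted p under 0.05), and 1 was with the replicate block. Their summed level was 7.46 to 58.7 CPM in wildtype and 9.54 to 80.7 in mutant libraries. Most of it was Lyz2, which granulocytes also express. Lyz2 averaged 33.3 CPM in wildtype and 40.2 in mutant libraries, against 38.5 and 47.3 for the whole list. Timd4 and Cd5l, which define resident liver macrophages, were at 0 in all libraries. Of 10 granulocyte and mast cell genes 0 were called in group 1 by edgeR (1 at an unadjusted p under 0.05) and 0 by DESeq2 and limma voom, or 5 higher with the block, with sums of 73.0 to 488 CPM in wildtype and 133 to 1040 in mutant libraries. Library 1 of either genotype had the lowest sum of both lists, while wildtype library 1 had the highest and mutant library 1 the lowest hepatocyte sum. In group 2, 1 of the 5 tested macrophage genes was higher, Lyz2, which granulocytes also express, in mutant (2.56, SE 0.70, adjusted p 0.0432 by edgeR and 0.0539 by limma voom) and in low-yield mutant libraries (3.82, SE 0.58, adjusted p 0.000699 by edgeR). The macrophage sum was 1.17 to 4.63 CPM in wildtype, 2.49 to 9.77 in mutant and 7.40 to 10.5 in low-yield libraries, the last without overlap from wildtype. Of the granulocyte genes in group 2, 6 of 8 tested were higher in mutant libraries, and 8 of 8 in low-yield ones, with sums of 6.64 to 15.3 CPM in wildtype, 53.9 to 144 in mutant and 95.6 to 169 in low-yield libraries.

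Endothelial genes were at 15.1 to 30.6 CPM in sum over all libraries, mostly from Eng, which erythroid progenitors also express. Of those tested, 0 of 5 were called in group 1 by edgeR (1 at an unadjusted p under 0.05, 1 by DESeq2, 0 by limma voom and 1 with the block), 1 of 6 in the group 2 mutant (Pecam1, 1.79, SE 0.37) and 4 of 6 in the low-yield mutant, all higher (by limma voom 2 were higher and 1, Eng, lower). Mesenchymal and stellate cell genes summed to 1.96 to 2.3 CPM in wildtype and 4.60 to 6.4 in mutant libraries of group 1, without overlap. Most of this came from Col1a2 (0.926 CPM on average in wildtype and 3.22 in mutant libraries) and Pdgfrb (0.698 and 1.63). Col3a1 went the other way (0.149 and 0.0). In group 1, 4 of the 11 genes were at 0 in all mutant libraries and 1 in all wildtype ones. There 1 of the 2 of 11 that could be tested was called, the collagen gene Col1a2 (1.80, SE 0.32, adjusted p 0.00378 by edgeR), or both with the replicate block (Pdgfrb 1.22, adjusted p 0.0224), while Pdgfra was at 0 in all group 1 libraries. In group 2 their sums were 3.03 to 5.03 CPM in wildtype, 4.56 to 6.45 in mutant and 5.51 to 8.37 in low-yield libraries, and of 4 tested edgeR and DESeq2 called 0 in either comparison with wildtype (1 and 2 at an unadjusted p under 0.05 by edgeR) and limma voom 1, Col1a2. Of 7 megakaryocyte genes, Vwf was lower in group 1 (-0.67, SE 0.20, adjusted p 0.0453 by edgeR and 0.0874 by limma voom), with sums of 23.6 to 41.0 CPM in wildtype and 27.0 to 43.9 in mutant libraries. In group 2, 1 of 6 megakaryocyte genes was higher in the mutant (Itga2b, 0.77, SE 0.17), and 3 were higher and 1 lower in the low-yield mutant, whose sums (49.5 to 50.8 CPM) lay above those of wildtype (35.2 to 39.6) and mutant libraries (33.2 to 39.8). Erythroid genes moved in the same direction as the hepatocyte transcripts in group 1, where 10 of 12 were lower (median log2 fold change -1.01), their sum being 3860 to 6070 CPM in wildtype and 2420 to 2540 in mutant libraries. In group 2, where hepatocyte transcripts gave no call, 5 of 12 erythroid genes were lower in mutant libraries (8 by DESeq2, 9 by limma voom and 8 with the replicate block), and 7 in low-yield ones (9, 10 and 10). What part these cell types have in the hepatocyte values was not tested.

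**Figure D5:**
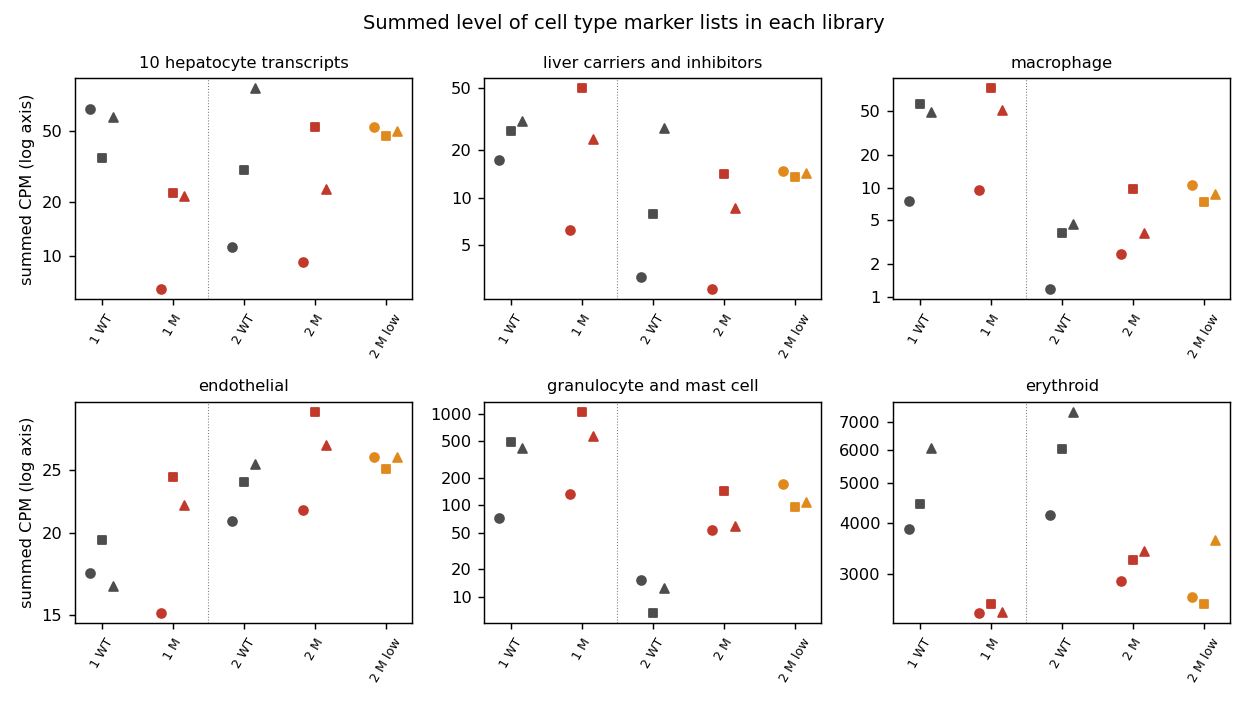
Summed CPM of the 10 hepatocyte transcripts and of 5 marker lists in each library (log axes that differ between panels; circles, squares and triangles for replicates 1, 2 and 3). Hepatocyte and carrier sums spread similarly over the group 2 libraries, whereas granulocyte sums separate group 2 wildtype (6.64 to 15.3) from mutant and low-yield libraries (53.9 to 169) and erythroid sums are lower in mutants.

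The genes whose level was most alike to the hepatocyte sum over the 15 libraries, out of 13370 compared, were Igf2 (Pearson's r 0.961 after each table's mean was taken out, and 0.937 after each group's), Serpinf2 (0.946 and 0.954), Ambp (0.941 and 0.922), Serpina6 (0.936 and 0.908), Itih2 (0.929 and 0.962), Rbp4 (0.901 and 0.948), Meg3 (0.901 and 0.858), Vtn (0.900 and 0.897), Serpina1a (0.896 and 0.829) and Rian (0.876 and 0.803). Of these 10, 7 are on the lists of clotting, carrier or inhibitor genes, and 3 are not. Igf2, a fetal growth factor, is imprinted, and Meg3 and Rian are noncoding RNAs of another imprinted cluster. Igf2 was at 8.61 ± 4.21 CPM in group 1 wildtype and 3.01 ± 1.46 in mutant libraries (log2 fold change -1.52, SE 0.55, adjusted p 0.148 by edgeR). Since they were picked for following that sum across genotypes as well, their own differences between genotypes are given as a description. Rian was at lower levels in the group 1 mutant (2.62 ± 0.978 against 0.697 ± 0.256 CPM; -1.92, SE 0.41, adjusted p 0.011 by edgeR), and Meg3 was at 2.81 ± 1.21 and 0.749 ± 0.720 CPM (-1.91, SE 0.59, adjusted p 0.0705). In group 2 none of these 3 passed the test against wildtype, with log2 fold changes from -1.03 to -0.53 in the mutant and from 0.14 to 1.27 in the low-yield mutant.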

How the data were processed

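RNA was extracted with the RNeasy Micro kit and sequenced in pairs of 151 bp reads (Illumina NovaSeq), per the labels' protocols. The authors deposited expected counts per gene, estimated read numbers that were already whole. Per the submitters' processing notes, cutadapt 2.3, STAR 2.7.8a and RSEM 1.3.3 were used on build GRCm38; annotation release and use of strand are not given in the sources used here. Reporter rows (4 and 5 per table, with 4 and 1 counts in all) were left out. Gene positions are those of GENCODE M21, promoters those of RefSeq (8 of 10 members searched). Trf had no promoter entry in the source used, and Ttr, on chromosome 18, was left out of the search.

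Tests used edgeR 4.0.16 (R 4.3.3) with TMM scaling, filterByExpr, a robust quasi-likelihood fit without the legacy mode and its two-sided F test, Benjamini-Hochberg adjustment over all genes tested and a threshold of 0.05, which is what "called" means. Group 1 (6 libraries), group 2 (1 fit over 9), all wildtype and mutant libraries (12, blocked by group of mice) and the interaction were fitted; levels were not compared between the groups of mice, whose RNA type differs. CPM are TMM-scaled. Correlations used log2(CPM + 0.1). DESeq2 1.42.0, limma 3.58.1 (voom with quality weights), other scalings and filters, a replicate block and the omission of each library were alternatives. The tests were tried on simulated data.

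Same-numbered libraries deviated together in group 1 (r 0.44, 0.19 and 0.15 over genes), so the numbers were taken to pair them there. Named genes are the 10 members, Rpl5, the 3 most abundant genes of each list in wildtype and the 10 most alike to the members' sum; Serpinc1, Kng1, Apom, Itih3, Cebpa, Onecut2, Timd4, Cd5l, Pdgfra and Tat were named after their values were seen. Members and lists were chosen with earlier results of these data known.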

Additional observations from a re-analysis of the deposited data

How the results depend on the processing

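Of 1070 recomputed values of single transcripts and of the Alb to Afp ratio, 988 kept their direction and their side of the threshold, 13 lost the call, 16 gained one and 53 changed sign, none of these with an adjusted p under 0.05 before or after. Of the 53, 10 came from other tools: limma voom turned Apoa1 to -0.32, Apoa2 to 0.26, Fga to 0.20 and Fgb to 0.041 in the group 2 mutant, Apoa2 to 0.51 and Apob to 0.014 in the low-yield mutant and the interaction of Apoa1 to -0.29; DESeq2 turned Fgb to 0.030 in the mutant and Apoa2 to 0.080 in the low-yield mutant; and the legacy mode turned the latter to 0.071. The other 43 came from leaving out 1 library. Log2 fold changes then ran from -0.61 to 0.0097 for Apoa1 in group 1. In the group 2 mutant they ran from -1.29 to 0.50 for Afp, -2.39 to 0.93 for Ahsg, -0.64 to 0.49 for Apoa1, -0.54 to 1.25 for Apoa2, -1.07 to 1.53 for Fga, -1.24 to 2.08 for Fgb, -1.11 to 0.58 for Trf and -0.82 to 0.90 for Ttr. In the low-yield mutant against wildtype they ran from -0.038 to 1.47 for Afp, -1.43 to 1.25 for Ahsg, -0.73 to 0.79 for Alb, -0.48 to 1.32 for Apoa2, -0.56 to 0.87 for Apob, -0.14 to 2.35 for Fga, -0.013 to 2.79 for Fgb, -0.16 to 1.38 for Trf and -0.31 to 1.42 for Ttr. Between low-yield and other mutants it was -0.23 to 1.49 for Ahsg and -0.32 to 0.37 for Apoa2, over both groups -0.43 to 0.0075 for Apoa1, and in the interaction -0.23 to 3.09 for Ahsg, -0.32 to 0.78 for Apoa1 and -0.21 to 1.53 for Ttr. In group 1 the 3 members called became 1 with limma voom and 1 with a mean CPM of at least 1 (which removed Apob and Fga from the test), and 0 to 3 without single libraries. With that CPM filter, 8.44% of 11443 genes were called lower and 7.93% higher. Over both groups 0 became 2 with DESeq2, 2 with limma voom, 3 with the replicate block and 0 to 4 without single libraries. In the other comparisons 0 members were called under every alternative run. Genes called in group 1 (1766) were 2863 with the replicate block and 753 to 1729 without single libraries. Those of the group 2 mutant (942) were 1452 with DESeq2, 1928 with limma voom and 425 to 1323 without single libraries; of the low-yield mutant against wildtype (1884), 3348 with limma voom and 900 to 2395; of low-yield against mutant (0), 6 with DESeq2, 4 with limma voom and 0 to 22; over both groups (3128), 2526 to 3629; and of the interaction (3), 13 with DESeq2, 5 with the replicate block and 2 to 3. The cause of these changes was not tested. Without single libraries the log2 ratio of summed members ran from -1.94 to -1.29 in group 1, -1.36 to 0.46 in the group 2 mutant, -0.23 to 1.26 in the low-yield mutant and 0.39 to 1.59 between low-yield and other mutants, and that of the Alb to Afp ratio from -0.67 to -0.44, -0.72 to -0.52, -0.82 to -0.54 and -0.21 to 0.07. The omission of libraries from the Alb to Afp ratio, its pairing, unscaled sums and the legacy mode of edgeR were added after seeing the data.

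In group 2 the replicate numbers were not taken to pair the libraries (r from -0.07 to 0.24). There the replicate block called 0 members in each comparison. Of all genes it called 4.13% lower and 4.58% higher in the mutant. In the low-yield mutant these shares were 7.4% and 8.11%, and between low-yield and other mutants 0% and 0%. In group 1, 4 of 6 libraries, and in group 2, 5 of 9, correlated best with a library of their own number. In group 1 the block changed the call of no other member than Alb and Ahsg. Counts were low for Ttr, Ahsg, Apoa2, Fgb and Fga, at 0 to 90 per library.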
